A study of Xenopus tropicalis with 9 samples.

Results

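The genes described here encode the ADAM and ADAMTS metalloproteases, the HtrA, proprotein convertase, TMPRSS and PRSS serine proteases, and the serpin and Kunitz inhibitors of the tail of the frog Xenopus tropicalis. Members were taken by gene name from the authors' deposited lists of selected genes (names beginning with adam, adamts, serpin, spint, tfpi, reck, htra, pcsk, tmprss or prss, without the collagen chaperone serpinh1, and with at least 10 counts over all libraries). This gave 59 genes of the 19921 in the count table. Of these, 39 encode proteases (7 ADAMs, 15 ADAMTSs, 2 HtrAs, 5 proprotein convertases and 10 TMPRSS or PRSS proteases) and 11 encode inhibitors (8 serpins and 3 Kunitz proteins). The other 9 carry a family name without the activity: adam11, adam22, adam23, the ADAMTS-like genes adamtsl1, ADAMTSL2, adamtsl3 and adamtsl5, prss35 and serpinb5. These classes were assigned by gene symbol, and no activity was measured in the frog.

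ADAMs are membrane-bound metalloproteases that cut the outer parts of receptors, ligands and adhesion molecules from the cell surface, and ADAMTSs are their secreted relatives that cut proteoglycans and procollagens. Proprotein convertases cut precursors of proteases and growth factors into their active forms, and membrane-anchored serine proteases of epithelia act in cascades at the cell surface. Serpins trap serine proteases by a suicide mechanism, and Kunitz inhibitors block the active site of trypsin-like enzymes. During metamorphosis the tadpole tail is resorbed under thyroid hormone, with breakdown of its extracellular matrix. Roles given below are those known in mammals, except where another animal is named.

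Each library was made from total RNA of tails, which the series title calls wild type. The 3 groups, each of 3 libraries, differ in stage and dissection. Whole tails came from stage 60, the earlier one, and from stage 63. In the last group the notochord had been taken out of stage 63 tails. No treatment, allele or age is given, and nothing says whether a library holds 1 animal or a pool, so the spread between libraries may be technical. Libraries held 26928846 to 34836531 counts assigned to genes. Levels below are TMM-scaled FPKM (counts divided by gene length and by library size, with library sizes scaled by edgeR's TMM factors), as mean ± SD over n = 3 libraries unless each library is given, in the order of the replicate numbers. Differences are log2 ± standard error (SE) from edgeR's quasi-likelihood fit, with Benjamini-Hochberg adjustment over the 14125 genes tested and a threshold of 0.05.

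The way the names arose limits what can be tested. The authors' stage list holds genes whose mean FPKM ratio between stage 63 and stage 60 was above 2, and their notochord list holds genes whose ratio between whole and notochord-removed tail was above 2. Of the 59 members, 56 are in the stage list and 6 in the notochord list, with 3 in both. Higher levels at stage 63 are therefore how most members were chosen, and stage differences are given as a description. By the authors' deposited ratios, the members nearest to the limit inside the stage list were adam19 at 2.19 and serpinb4 at 2.29, the member just outside was prss36 at 1.69, and the largest was prss35 at 186. These ratios use FPKM on library totals, without the TMM factors. The stage folds below are TMM-scaled and lower, at 1.24 for adam19 and 105 for prss35. In the notochord list the nearest inside was adamts14 at 2.08, and the nearest outside was serpinf2 at 1.34. The difference between whole and notochord-removed tail was tested for the 53 members outside the notochord list, although the stage list was chosen with the same whole-tail stage 63 libraries.

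Of 16 notochord markers listed, 9 are named in the authors' deposited lists, all of them in the notochord list. The other symbols could not be looked up by name. The summed level of the 9 ran from 3671 to 3714 CPM in whole tail at stage 60, and edgeR called 7 lower and 1 higher at stage 63. It ran from 138 to 143 CPM in whole stage 63 tails and from 51.5 to 67.6 CPM after the dissection. The level in whole stage 63 tails was thus already far below that of stage 60. Less notochord tissue and less of these RNAs per cell cannot be told apart here. How far either enters the stage differences below was not tested. The lower level after removal is how these markers were chosen and so is no check of the dissection; RNA of all 9 was still counted in at least 1 library after it. Of these markers only chad was at 0 in any library, in notochord-removed replicate 1. Notochord-removed replicate 3 stood apart from the other libraries of its group: the chi-square per degree of freedom over genes was 22.9 and 19.9 against replicates 1 and 2, and 3.09 between those replicates. Whole-tail stage 63 replicates 1 and 3 differed nearly as much, at 21.9. Calls of members between the stage 63 groups that change without one of these libraries are given with that change. Calls of tissue markers and of the other genes of pericellular proteolysis below were not followed with libraries left out.

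The membrane-bound ADAM metalloproteases ranged in whole tail from 0.347 FPKM (adam12) to 12.5 FPKM (adam10) at stage 60, and from 0.600 (adam19) to 37.4 FPKM (adam10) at stage 63. adam10, the sheddase of Notch receptors and cadherins, was at 12.2, 13.1 and 12.3 FPKM at stage 60 and at 39.8, 36.5 and 36.0 in whole stage 63 tails. Notochord-removed tails had 44.0, 42.8 and 37.1 FPKM of adam10, overlapping the whole tails; the difference of -0.14 ± 0.070 did not pass (adjusted p = 0.144, edgeR), and passed without notochord-removed replicate 3 (-0.21, adjusted p = 0.00575). adam17, which releases tumor necrosis factor and ligands of the EGF receptor, was at 5.87, 5.29 and 5.46 FPKM at stage 60, then 16.2, 18.4 and 19.8 in whole and 15.3, 15.8 and 19.2 in notochord-removed tails. Its stage 60 libraries lay below all stage 63 libraries, and the groups at stage 63 overlapped, with a difference of 0.11 ± 0.084 (adjusted p = 0.342, edgeR) that passed without notochord-removed replicate 3 (0.22, adjusted p = 0.0127). adam12, a meltrin of mesenchyme and remodelling tissue, was at 0.358, 0.310 and 0.372 FPKM at stage 60, 5.27, 5.09 and 5.41 in whole and 5.28, 5.13 and 6.35 in notochord-removed stage 63 tails. It had the largest stage difference of the ADAMs, 3.92 ± 0.15. adam19, also a meltrin, was low throughout, at 0.597, 0.415 and 0.445 FPKM at stage 60, 0.546, 0.563 and 0.691 in whole and 0.644, 0.581 and 0.733 in notochord-removed stage 63 tails, and its groups overlapped. It was called higher in whole tail at stage 63 only with library size alone as the scaling. The stage list chose adam19 with that scaling, so nothing is read from this call.

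The summed level of the ADAMTS genes was below those of the ADAMs and HtrAs at stage 60 and above both in whole stage 63 tails. At stage 60 none of the 15 exceeded the 4.04 FPKM of adamts1, and their summed level was 15.2 FPKM, while in whole stage 63 tails it was 218 FPKM, 14.3 times as high. Of the 55 members that passed the filter on low counts, 6 were at least 16-fold higher at stage 63 than at stage 60: prss35 and the ADAMTS genes adamts17, adamts9, adamts7, adamts4 and adamts15, which are 5 of the 14 ADAMTS genes tested. The share of all genes at this fold is not given here, and most members were chosen on stage, so these counts are a description. adamts17, an orphan ADAMTS linked to fibrillin in the matrix, was at 0.689, 0.380 and 0.469 FPKM at stage 60, 48.3, 52.1 and 58.2 in whole stage 63 tails and 51.3, 49.9 and 61.3 in notochord-removed tails. The stage groups were far apart and the groups at stage 63 overlapped, with a difference between them of -0.04 ± 0.088. The aggrecanase adamts4 was at 1.81, 1.75 and 1.95 FPKM at stage 60, 54.6, 55.8 and 63.0 in whole and 60.5, 64.6 and 72.9 in notochord-removed stage 63 tails. This was the highest ADAMTS level in both stage 63 groups.

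adamts9, a proteoglycanase whose worm relative guides the migration of gonad cells, was at 0.274, 0.0854 and 0.174 FPKM at stage 60 and at 10.1, 9.66 and 9.51 in whole stage 63 tails. It was at 8.08, 8.45 and 7.30 FPKM after notochord removal, below every whole tail. The procollagen N-proteinase adamts2 went the other way between the stage 63 groups, at 9.62, 9.02 and 8.62 FPKM in whole and 10.9, 10.9 and 10.5 FPKM in notochord-removed tails, from 0.813 ± 0.0906 FPKM at stage 60. The aggrecanase adamts5 was at 1.54, 1.72 and 1.60 FPKM at stage 60, 11.97, 12.4 and 12.7 in whole and 12.7, 13.001 and 14.7 in notochord-removed stage 63 tails, a stage difference of 2.93 ± 0.094. The versicanase adamts1 was at 4.23, 4.26 and 3.62 FPKM at stage 60, 11.7, 12.7 and 13.2 in whole and 13.1, 13.5 and 16.8 in notochord-removed stage 63 tails. Its whole and notochord-removed tails overlapped, and the difference of -0.21 ± 0.085 (adjusted p = 0.0781, edgeR) passed without notochord-removed replicate 1 (0.0263) and with the replicate block (0.0409). That of adamts4, -0.19 ± 0.073 (adjusted p = 0.0622), passed without whole stage 63 replicate 3 or notochord-removed replicate 1 (both 0.0229), with library size alone (0.0450) and with the replicate block (0.0127). adamts7, which cuts the matrix protein COMP, and the versicanase adamts15 were at 0.5002 ± 0.0654 and 1.02 ± 0.160 FPKM at stage 60 and at 19.7 ± 2.62 and 25.3 ± 0.703 FPKM in whole stage 63 tails, with 22.04 ± 4.55 and 25.999 ± 1.31 FPKM without the notochord. At the low end, adamts12 and adamts18 stayed under 0.5 FPKM in every library and did not pass the threshold between stages in whole tail. Against the same stage 60 libraries, notochord-removed tails were higher by 0.72 ± 0.26 for adamts12 and by 1.202 ± 0.40 for adamts18. Both genes were chosen on a stage ratio over those stage 60 libraries, so these differences are a description. Between whole and notochord-removed tail the groups of both genes overlapped and neither passed. The differences were -0.28 ± 0.20 for adamts12 (adjusted p = 0.338, edgeR) and -0.35 ± 0.28 for adamts18 (adjusted p = 0.399, edgeR). adamts14, a procollagen N-proteinase chosen for its notochord ratio, was at 0.392, 0.237 and 0.288 FPKM at stage 60, 0.532, 0.615 and 0.540 in whole stage 63 tails and 0.277, 0.241 and 0.276 without the notochord. The levels without the notochord lay within the stage 60 range.

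**Figure D1:**
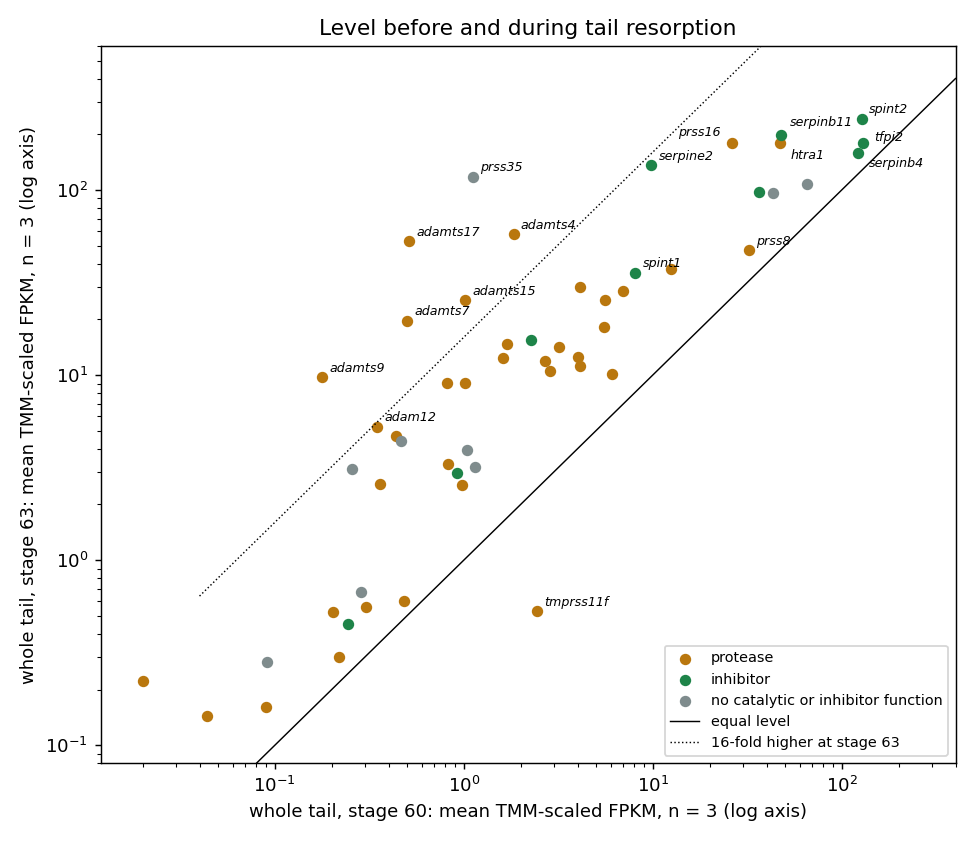
Mean level of the 55 tested genes in whole tail at stage 60 (x axis) and stage 63 (y axis), TMM-scaled FPKM, both log axes, n = 3 libraries a group. Points are coloured by role, the solid line marks equal levels and the dotted line a 16-fold higher level at stage 63, above which lie prss35 and 5 ADAMTS genes; tmprss11f is the gene well below the solid line.

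The HtrA protease htra1, a secreted serine protease of the matrix, had the highest level of the proteases at stage 60, and in whole stage 63 tails it overlapped prss16. Its libraries were at 50.1, 43.3 and 47.8 FPKM at stage 60, 179.4, 177.4 and 184.7 in whole stage 63 tails, and 151, 156 and 172 in notochord-removed tails. All whole tails exceeded all notochord-removed tails, but the difference of 0.18 ± 0.068 missed the threshold (adjusted p = 0.0590, edgeR). It passed with 5 alternatives: DESeq2 size factors in edgeR (adjusted p = 0.0431), upper quartile factors (0.0477), the DESeq2 Wald test (0.0343), the replicate block (0.0310) and without notochord-removed replicate 3 (0.00388), with the highest adjusted p of all alternatives at 0.200. Its relative HTRA3 was at 1.54, 1.42 and 2.10 FPKM at stage 60, 14.2, 14.3 and 15.7 in whole and 16.7, 18.6 and 21.9 in notochord-removed stage 63 tails, so that the order of whole and notochord-removed tail was opposite to that of htra1. Of the proprotein convertases, pcsk5 was at 6.22, 5.52 and 6.46 FPKM at stage 60, 9.55, 10.4 and 10.5 in whole and 10.3, 10.7 and 11.3 in notochord-removed stage 63 tails. pcsk7 was at 2.49, 2.99 and 3.11 FPKM, then 10.99, 9.83 and 10.6, then 10.3, 9.87 and 8.28. pcsk6, which like pcsk5 activates growth factors of the TGF-beta family, was at 0.499, 0.519 and 0.299 FPKM at stage 60, 4.43, 4.91 and 4.74 in whole and 5.11, 5.47 and 5.40 in notochord-removed stage 63 tails. Its stage difference was 3.41 and that of pcsk5 was 0.74. The neuroendocrine convertases pcsk1 and pcsk2 stayed under 1 FPKM in all groups, and pcsk1 was at 0 in stage 60 replicate 3.

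Among the TMPRSS and PRSS proteases, prss16, a serine protease known from the thymus, was at 27.4, 26.8 and 24.4 FPKM at stage 60 and 185, 178 and 172 in whole stage 63 tails. Notochord-removed tails had 179.9, 179.9 and 168 FPKM of prss16, overlapping the whole tails (0.02 ± 0.063). prss8, or prostasin, a membrane-anchored activator of epithelial sodium channels, was at 33.7, 29.4 and 33.5 FPKM at stage 60, 46.3, 49.2 and 46.1 in whole stage 63 tails and 33.0, 35.8 and 34.7 in notochord-removed tails. The whole stage 63 tails were above the other groups, which overlapped each other. The membrane-bound protease gene tmprss13 was at 0.770, 0.930 and 1.35 FPKM at stage 60, 9.52, 9.46 and 8.27 in whole and 13.7, 12.96 and 11.7 in notochord-removed stage 63 tails, with no overlap between any of the groups. tmprss4, which lies near it on the same scaffold, was at 3.18 ± 0.536, 14.2 ± 0.768 and 15.2 ± 0.0756 FPKM in the 3 groups, and the secreted protease prss23 at 6.96 ± 0.403, 28.6 ± 0.913 and 27.8 ± 1.81 FPKM.

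tmprss11f, of the airway-trypsin-like TMPRSS family, was the only tested member called lower at stage 63. All other tested members are in the stage list, chosen for higher levels at that stage. It was at 2.04, 2.74 and 2.59 FPKM at stage 60, 0.441, 0.641 and 0.505 in whole stage 63 tails and 0.227, 0.332 and 0.164 in notochord-removed tails, so that the 3 groups did not overlap. It is a member through the notochord list alone, and with a stage ratio above 2 it would be in both lists. The ratio that chose it also used the whole stage 63 libraries, so its stage difference is given as a description. It fell by 2.22 ± 0.18 (adjusted p = 7.9e-10, edgeR), where 40.8% of all genes tested were lower and 43% higher at stage 63. Its difference between whole and notochord-removed tail, 1.14 ± 0.25, is how it was chosen.

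Genes with a family name but without the enzyme or inhibitor activity include the member with the largest stage difference. prss35, whose protein has an altered catalytic residue, was at 1.22, 1.10 and 1.05 FPKM at stage 60, 124, 118 and 112 in whole stage 63 tails and 126, 123 and 115 in notochord-removed tails. The stage difference was 6.71 ± 0.10, and the stage 63 groups overlapped. serpinb5, or maspin, a serpin without inhibitor function, was at 65.3, 64.3 and 65.9 FPKM at stage 60, 119, 108 and 97.6 in whole and 124, 119 and 92.7 in notochord-removed stage 63 tails. adamtsl5, which binds fibrillin microfibrils, was at 43.3, 96.1 and 95.6 FPKM on average. The non-catalytic adhesion ADAM adam23 was at 1.04 ± 0.0325 FPKM at stage 60, 3.96 ± 0.0281 in whole and 3.53 ± 0.0559 in notochord-removed stage 63 tails. Its stage 63 groups did not overlap, with a difference of 0.17 ± 0.077 that did not pass (adjusted p = 0.122, edgeR). adam22, a neuronal receptor of the same kind, was at 0.137, 0.0689 and 0.0677 FPKM at stage 60, 0.279, 0.320 and 0.249 in whole and 0.293, 0.300 and 0.361 in notochord-removed stage 63 tails. The ADAMTS-like matrix protein gene adamtsl1 was at 0.292, 0.224 and 0.251 FPKM at stage 60, 3.24, 3.15 and 2.97 in whole and 3.01, 2.97 and 2.86 in notochord-removed stage 63 tails. adamtsl3 was at 0.363, 0.201 and 0.291 FPKM, then 0.547, 0.721 and 0.755, then 0.518, 0.596 and 0.545. In all 3 the stage 63 groups overlapped.

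**Figure D2:**
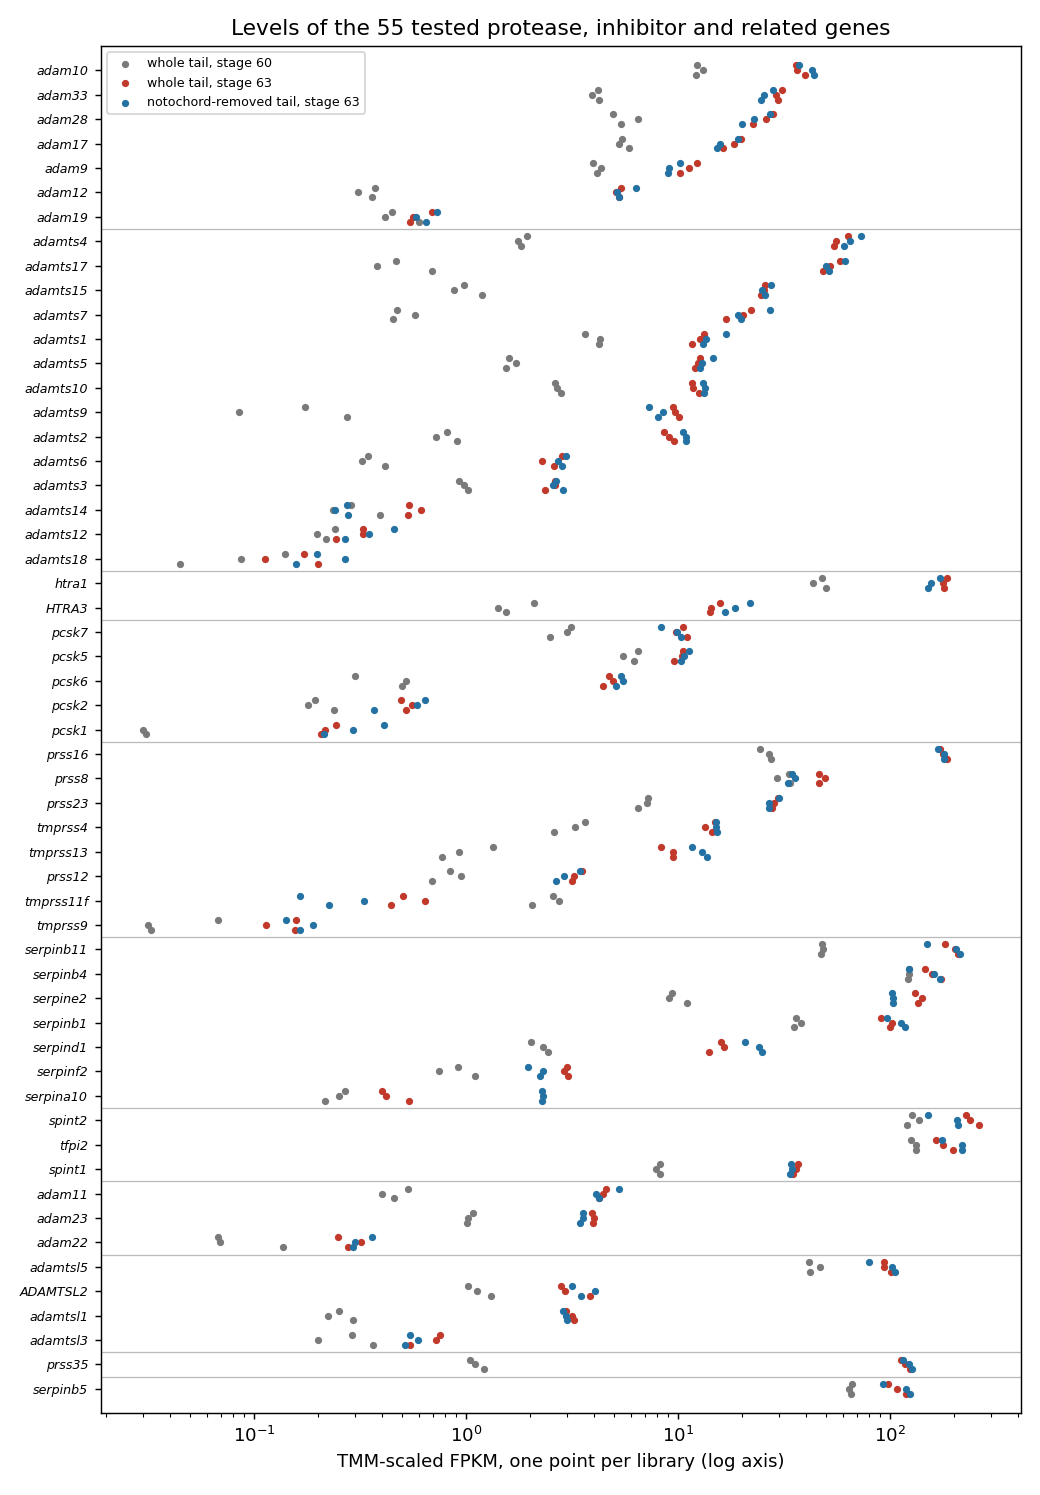
Level of each of the 55 tested genes in each of the 9 libraries (x axis, TMM-scaled FPKM, log axis), with genes on the y axis grouped by role and separated by lines. Grey is whole tail at stage 60, red whole tail at stage 63 and blue notochord-removed tail at stage 63; 1 stage 60 library of pcsk1 is at 0 and is not drawn. Red and blue points lie close together for most genes and apart for serpina10.

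At stage 60, 3 of the 11 inhibitors (tfpi2, spint2 and serpinb4) had a mean of 100 FPKM or more, and 3 had a mean under 1 FPKM. The serpin serpinb4, of the clade B family of cell-internal inhibitors, was at 121, 123 and 123 FPKM at stage 60, 174, 157 and 146 in whole stage 63 tails and 173, 161 and 123 in notochord-removed tails. Its stage 60 libraries lay below the whole stage 63 libraries and overlapped notochord-removed replicate 3. serpinb11 was at 47.4, 48.4 and 47.9 FPKM at stage 60, 210.3, 201 and 181 in whole and 213, 205 and 149 in notochord-removed stage 63 tails, the highest serpin level at stage 63. serpinb1, an inhibitor of neutrophil elastase, was at 36.5 ± 1.53, 97.5 ± 6.03 and 108.8 ± 11.2 FPKM in the 3 groups. serpine2, or protease nexin-1, an inhibitor of thrombin and plasminogen activators at the cell surface, was at 11.1, 9.04 and 9.36 FPKM at stage 60, 136, 141 and 132 in whole and 103, 103 and 103 in notochord-removed stage 63 tails. It was the only inhibitor at least 8-fold higher at stage 63 in whole tail, where 11 of 36 tested proteases were. The share of all genes at this fold is not given here, and most members were chosen on stage. Nothing is read from these counts about the 2 classes.

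Serpins known from blood plasma and made mainly by the liver were at lower levels. serpind1, heparin cofactor II, an inhibitor of thrombin, was at 2.43, 2.32 and 2.03 FPKM at stage 60, 14.1, 16.5 and 15.99 in whole and 24.99, 24.1 and 20.8 in notochord-removed stage 63 tails. serpina10, the protein Z-dependent inhibitor of factor X, was at 0.216, 0.251 and 0.269 FPKM at stage 60, 0.538, 0.419 and 0.400 in whole and 2.29, 2.30 and 2.29 in notochord-removed stage 63 tails. In counts this is 26, 18 and 21 in whole against 100, 101 and 116 in notochord-removed tails. serpinf2, the plasmin inhibitor alpha-2-antiplasmin, was at 1.11, 0.743 and 0.914 FPKM at stage 60, 3.01, 2.90 and 3.00 in whole and 2.23, 2.31 and 1.962 in notochord-removed stage 63 tails. serpind1 and serpina10 were thus higher and serpinf2 lower without the notochord, with no overlap between groups in any of them.

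The Kunitz inhibitors spint1 and spint2 block the epithelial proteases hepatocyte growth factor activator, matriptase and prostasin. spint2 was at 119.6, 136 and 126 FPKM at stage 60, 262, 237 and 228 in whole stage 63 tails and 209, 206 and 151 in notochord-removed tails, with the highest mean of any member in whole stage 63 tails. spint1 was at 8.18, 7.87 and 8.26 FPKM at stage 60, 34.9, 35.8 and 36.6 in whole and 33.6, 34.6 and 34.1 in notochord-removed stage 63 tails. tfpi2, tissue factor pathway inhibitor 2, a matrix-bound inhibitor of plasmin, was at 133, 133 and 126 FPKM at stage 60, 197, 178 and 165 in whole and 219.6, 218 and 176 in notochord-removed stage 63 tails. The whole tails were above the notochord-removed tails in every library for spint1 and spint2, and overlapped them for tfpi2. The inhibitors reck, tfpi, serpinf1 and serping1 and the protease tmprss2 are not named in the lists and were not analysed here.

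Proteases and inhibitors were compared by their summed level, which weighs each gene by its transcript level and says nothing of activity. The protease sum includes the 7 ADAM and 15 ADAMTS metalloproteases, while the inhibitors are described above as acting on serine proteases and trypsin-like enzymes. The 2 sums are therefore not matched enzymes and inhibitors. The 39 proteases summed to 184, 174 and 180.1 FPKM at stage 60, 837, 843 and 867 in whole stage 63 tails and 806, 821 and 869 in notochord-removed tails. The 11 inhibitors summed to 479, 499 and 479 FPKM at stage 60, 1132, 1073 and 999 in whole and 1099, 1069 and 857 in notochord-removed stage 63 tails. The sum of these 11 inhibitors was thus above that of the 39 proteases in every library except notochord-removed replicate 3. At stage 63 this order rests on the abundant tfpi2 and spint2, as the ratios without them below show. The summed proteases were 4.73-fold and the summed inhibitors 2.20-fold higher in whole tail at stage 63 than at stage 60. These folds depend on the scaling of libraries. With library size alone, the mean sum in whole tail went from 122 to 1019 FPKM for proteases and from 330 to 1280 FPKM for inhibitors.

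The ratio of summed proteases to summed inhibitors, which does not depend on the scaling of libraries, was 0.383, 0.349 and 0.376 at stage 60. It was 0.739, 0.786 and 0.868 in whole stage 63 tails and 0.734, 0.768 and 1.01 in notochord-removed tails. All stage 63 libraries lay above all stage 60 libraries, and the stage 63 groups overlapped. Because nearly all names come from a list chosen for higher levels at stage 63, the ratio describes these members and not all proteases and inhibitors of the tail. The median stage difference was 2.16 over the 34 proteases and 1.55 over the 10 inhibitors tested outside the notochord list, against 0.05 over all genes tested and 1.04 over the 6458 tested genes of the stage list outside the notochord list, which were chosen in the same way. Over all 55 tested members, 51 were higher, 1 was lower and 3 did not pass. Of all genes tested, 43% were higher and 40.8% lower, 83.8% in either direction. After notochord removal, against the same stage 60 libraries, 51 members were higher and 1 lower. Of all genes tested, 43.3% were higher and 39.7% lower there, 82.9% in either direction. Since the lists chose most members on stage, nothing is read from these counts. With library size alone as the scaling, the medians were 2.98 and 2.37, a scaling that moves the median of all genes by 0.82. With genes without the activity counted by their family name, an alternative chosen after seeing the data, the ratio was 0.412 at stage 60, 0.920 in whole and 0.964 in notochord-removed stage 63 tails. Without the abundant tfpi2 and spint2, also chosen after seeing the data, it was 0.786, 1.32 and 1.37.

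The composition of both sums differed between stages. At stage 60, tfpi2, spint2 and serpinb4 held 26.8%, 26.2% and 25.2% of the inhibitor sum. In whole stage 63 tails spint2 held 22.7%, serpinb11 18.5% and tfpi2 16.9%. The share of serpinb11 at stage 60 was 9.86%. This gene was classed as an inhibitor by its symbol, and the inhibitor sum depends on that class. Of the protease sum at stage 60, htra1 held 26.2%, prss8 17.9% and prss16 14.6%. In whole stage 63 tails htra1 held 21.3% and prss16 21.1%, adamts4 and adamts17 held 6.81% and 6.22%, and prss8 held 5.56%. By family, the fold between whole tails of stage 63 and stage 60 was 14.3 for ADAMTS, 4.004 for HtrA, 3.91 for ADAM, 3.86 for TMPRSS and PRSS proteases, 2.72 for proprotein convertases, 2.77 for serpins and 1.72 for Kunitz inhibitors. All of these folds are larger with library size alone as the scaling, where the ADAMTS sum went from 10.3 to 261 FPKM.

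**Figure D3:**
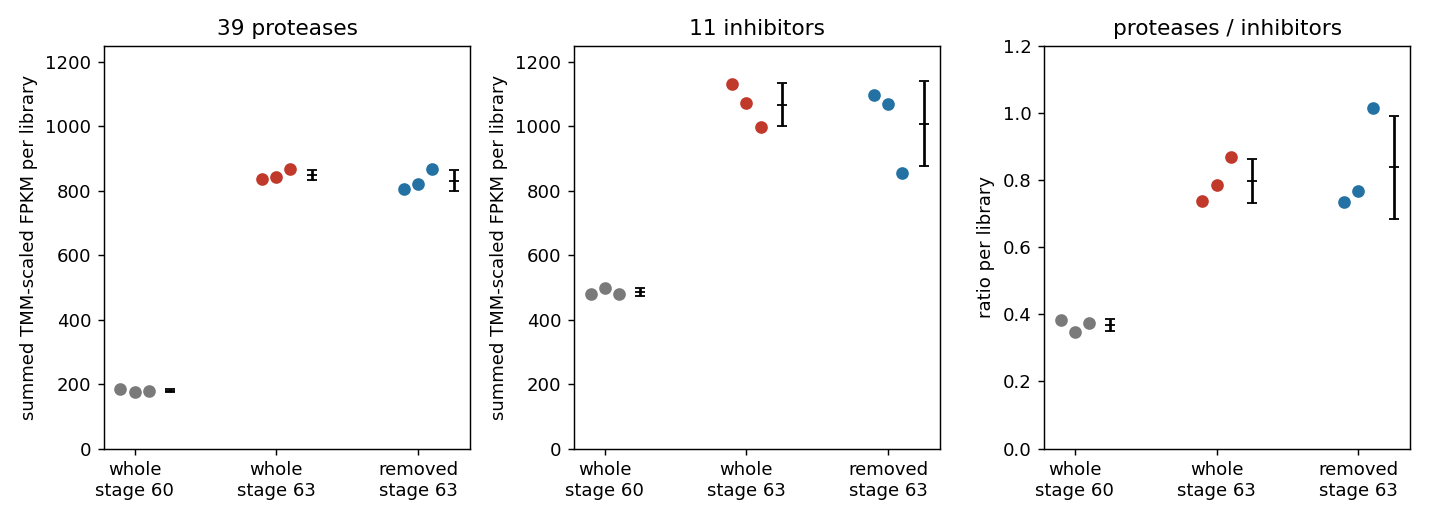
Summed TMM-scaled FPKM of the 39 proteases and of the 11 inhibitors (left and middle, y axis from 0) and their ratio (right), by group. Points are libraries and bars show mean ± SD, n = 3; all stage 63 ratios lie above the stage 60 ratios, and notochord-removed replicate 3 has the highest ratio, 1.01.

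Whole and notochord-removed tails were compared over the 53 members outside the notochord list, a choice that leaves out every member whose mean in whole tail was over 2 times that without the notochord. Of these, 7 were higher in whole tail (13.2%; 11.1% of all genes tested were), 5 were lower (9.43%; 14.5% of all genes) and 41 did not pass. The share called, 22.6%, was near that of all genes tested (25.6%) and of the 6458 tested genes of the stage list outside the notochord list (22.8%), so the count is not a result about these families. For 51 of the 53 (96.2%) the fitted difference was within 0.5 on the log2 scale, against 93.1% of the stage-list genes outside the notochord list. The median was -0.04, against 0.01 over all genes and 0.06 over those stage-list genes. Whole and notochord-removed libraries did not overlap for 18 members (34.0%), against 39.3% of all genes tested. In tissue RNA of this kind, fewer cells of a type and less RNA per cell cannot be told apart.

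Among the 34 proteases, 4 were higher in whole tail (prss8, adamts9, adam9 and adam33), 3 were lower (tmprss13, HTRA3 and adamts2) and 27 did not pass, with a median difference of -0.09. prss8 was higher in whole tail by 0.45 ± 0.066 (adjusted p = 5.75e-05, edgeR), and its difference between notochord-removed stage 63 tail and whole stage 60 tail was 0.10 ± 0.070 (adjusted p = 0.193). adamts9 was higher by 0.30 ± 0.088 (adjusted p = 0.0186), adam9, a sheddase with wide expression, by 0.25 ± 0.073 (adjusted p = 0.0150), and adam33, an ADAM of mesenchymal cells, by 0.20 ± 0.064 (adjusted p = 0.0271). The libraries of adam9 overlapped, at 10.2, 11.3 and 12.2 FPKM in whole and 8.95, 9.08 and 10.3 in notochord-removed tails. Those of adam33 did not, at 29.6, 29.1 and 31.1 against 24.6, 25.5 and 28.04 FPKM. These 3 calls were the least firm. The call of adamts9 was lost without whole stage 63 replicate 1 or 2 (adjusted p = 0.0694 and 0.0618). That of adam9 was lost when any of 4 libraries was left out (replicates 2 and 3 of whole stage 63 tail, replicates 1 and 2 of notochord-removed tail), with an adjusted p up to 0.0915, and that of adam33 without any of whole stage 63 replicates 1 to 3 or notochord-removed replicates 1 and 2, up to 0.118. With library size alone both adam9 (0.0509) and adam33 (0.0816) lost their call, and with the 6 libraries of the contrast adam33 did (0.0606). tmprss13 was lower in whole tail by -0.50 ± 0.094 (adjusted p = 7.34e-04), HTRA3 by -0.37 ± 0.092 (adjusted p = 0.00577) and adamts2 by -0.25 ± 0.065 (adjusted p = 0.00881).

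Among the 10 inhibitors, 3 were higher in whole tail (serpinf2, serpine2 and spint2), 2 were lower (serpina10 and serpind1) and 5 did not pass. serpina10 (ENSXETG00000010316) had the largest difference of the 53 members: it was 5.05-fold higher without the notochord (log2 difference -2.34 ± 0.17, adjusted p = 8.63e-09, edgeR), and the next largest, serpind1, was -0.59 ± 0.078 (adjusted p = 2.23e-05). serpine2 was higher in whole tail by 0.40 ± 0.067 (adjusted p = 2.23e-04) and serpinf2 by 0.46 ± 0.11 (adjusted p = 0.00359). spint2 was higher by 0.36 ± 0.10 (adjusted p = 0.0147), a call lost without whole stage 63 replicate 1 (adjusted p = 0.0800). tfpi2 was not called at -0.18 ± 0.083 (adjusted p = 0.115), and passed without whole stage 63 replicate 1 (0.0380) or notochord-removed replicate 3 (0.00172), with library size alone (0.0446) and with the replicate block (0.0368); the highest adjusted p over its alternatives was 0.345. The median over the inhibitors was 0.06, and -0.08 without notochord-removed replicate 3, so that its sign rests on that library. Of the 9 members without activity, 0 passed in edgeR or in any alternative run, DESeq2 and limma-voom included; 1, adam23, had an unadjusted p under 0.05.

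Leaving out notochord-removed replicate 3 gave 10 members higher and 9 lower in whole tail in place of 7 and 5, where all genes called went from 1570 and 2043 to 1939 and 2484; the members gained were adam17, adam28 and htra1 among the higher and adam10, adamts10, serpinb1 and tfpi2 among the lower. Leaving out whole stage 63 replicate 1 or 2 gave 4 higher. The 3 higher calls of prss8, serpine2 and serpinf2 and the 5 lower calls of serpina10, serpind1, tmprss13, HTRA3 and adamts2 held in every alternative run. Of these, adamts2 and HTRA3 came nearest to the threshold of 0.05. Their highest adjusted p over the alternatives was 0.0497 and 0.0356. The summed levels of the stage 63 groups were close, with a fold of whole over notochord-removed tail of 1.02 for proteases and 1.06 for inhibitors. Without notochord-removed replicate 3 these were 1.04 and 0.985, so that the direction for inhibitors rests on that library.

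**Figure D4:**
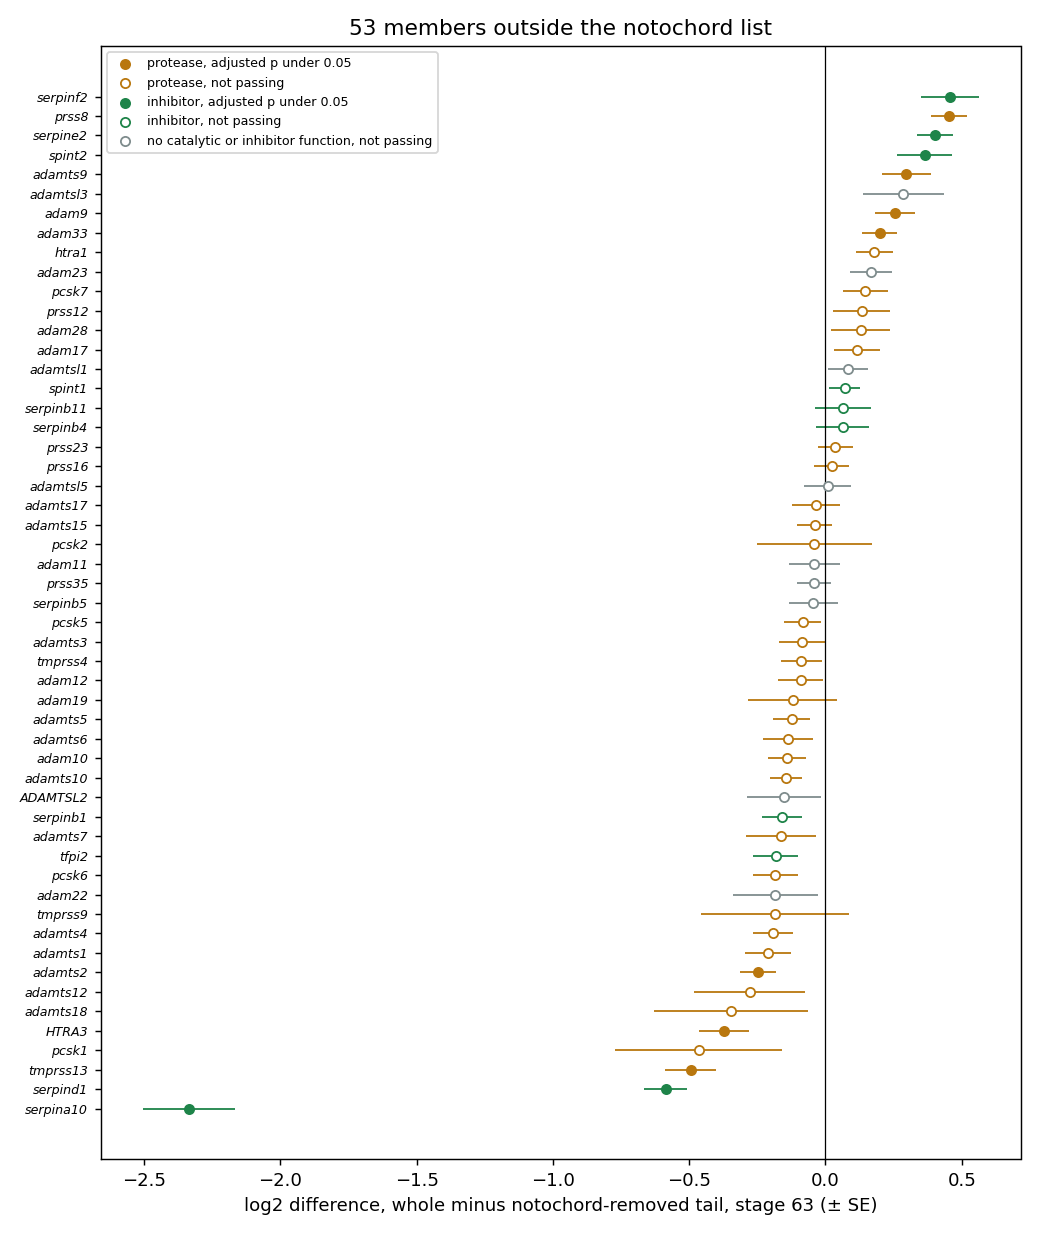
Log2 difference between whole and notochord-removed tail at stage 63 (x axis, ± SE) for the 53 members outside the notochord list (y axis), with positive values higher in whole tail. Filled points passed an adjusted p of 0.05 (7 higher, 5 lower) and open points did not; serpina10, at -2.34, lies far from the rest.

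Markers of other tissues and early response genes were read in the same comparison, where 11.1% of all genes tested were higher in whole tail, 14.5% lower and 25.6% either. Only markers named in the authors' deposited lists could be looked up, so the counts and sums do not cover whole marker lists. This left 3 of 8 muscle symbols and 5 of 9 neuron and glia symbols. Of 13 leukocyte markers tested, 6 were higher and 1 lower in whole tail, and their summed level ran from 1481 to 1515 CPM with the notochord and from 1386 to 1446 CPM without it. Of 13 endothelial and mural markers 1 was higher and 6 lower in whole tail, with sums of 778 to 819 and 649 to 818 CPM. Of 10 epidermal markers 1 was higher and 2 lower, with sums of 4284 to 4434 and 4203 to 4506 CPM. Of 10 fibroblast markers 2 were higher and 1 lower, with sums of 10278 to 10756 and 10500 to 10996 CPM. Of 3 muscle markers 2 were higher, with sums of 78.3 to 82.4 and 39.03 to 54.5 CPM. Those 2 are in the notochord list, so their higher level in whole tail is how they were chosen. The 1 muscle marker outside that list did not pass. In whole tail at stage 60 the muscle markers summed to 693 to 720 CPM, above their level in whole stage 63 tails. The sums of all other lists in this paragraph were lower at stage 60 than in whole stage 63 tails. The stage list, through which names were found, was chosen for higher levels at stage 63. Nothing is therefore read from this stage difference about the tissues. Of 5 neuron and glia markers 1 was higher. The share called was 30% for the epidermal and fibroblast lists and 20% for neuron and glia, near that of all genes. Of 7 immediate early genes 6 were lower in whole tail, with sums of 483 to 498 CPM with the notochord against 1335 to 1398 CPM without it. The part of these tissues and of the early response in the calls above was not tested.

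Other genes of pericellular proteolysis, which act with the members as activators, receptors, substrates or further inhibitors, were read from a list of 79 symbols. Of these, 48 are named in the authors' deposited lists, and 47 genes were tested. The other symbols could not be looked up by name, and their genes may still be in the count table. In whole against notochord-removed tail, 3 were higher, 10 were lower and 34 did not pass, with a median of -0.04. The 27.7% called is near the 25.6% of all genes tested and the 22.8% of stage-list genes outside the notochord list. The total called is therefore not a result about these genes. By direction, 11.1% of all genes were higher and 14.5% lower, against 14.3% and 8.52% of those stage-list genes. The lean of the listed genes to lower levels in whole tail was not tested. Whether the calls of the genes named below hold with libraries left out was not examined. The coagulation protease genes f10 and f7 were lower in whole tail, by -0.62 ± 0.067 and -0.58 ± 0.10. f10 was at 15.1, 17.2 and 17.2 FPKM in whole and 25.2, 24.6 and 26.1 in notochord-removed tails, and f7 at 3.81, 3.75 and 3.96 against 5.73, 5.52 and 5.997, with no overlap in either. F2RL1, the protease-activated receptor cut by trypsin-like and membrane-anchored serine proteases, was at 16.1, 13.2 and 13.2 FPKM in whole and 24.8, 24.99 and 19.3 in notochord-removed tails, a difference of -0.69 ± 0.10. The gene wfdc1, whose protein carries a whey acidic protein domain, was lower by -0.49 ± 0.067. vcan, a proteoglycan substrate of ADAMTS proteases, was higher in whole tail by 0.63 ± 0.10, at 3.28, 4.23 and 4.46 FPKM against 2.40, 2.42 and 2.92, and the heparan sulfate proteoglycan sdc1 was higher by 0.28 ± 0.068. furin, the convertase that matures ADAMs and ADAMTSs, was higher by 0.22 ± 0.062 (adjusted p = 0.0134, edgeR). st14, matriptase, which is a target of spint1 and spint2 and acts with prss8, did not pass (-0.07 ± 0.072, adjusted p = 0.534).

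The remaining 4 members had too few counts to be tested. adamts13, which cuts von Willebrand factor, had 2, 0 and 1 counts at stage 60, 3, 7 and 6 in whole stage 63 tails and 1, 1 and 0 without the notochord. serpinc1, antithrombin, had 0, 1 and 1 counts, then 5, 1 and 2, then 0, 1 and 0. prss36 had 1, 0 and 2 counts, then 2, 2 and 2, then 0, 1 and 0. tmprss12 had 3, 5 and 3 counts, then 4, 4 and 5, then 3, 2 and 0. All of these are in the notochord list, and adamts13 and serpinc1 are in the stage list as well. Counts this low give no estimate of a difference.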

How the data were processed

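Sequencing libraries were prepared from total tail RNA with Illumina's TruSeq RNA kit, as the labels' protocols state. The submitters' processing notes name STAR 2.5.4a and featureCounts 1.5.2. Neither the genome build nor the strand setting could be read from the sources used here (not given), which leaves overlapping and antisense genes unresolved. Raw counts for each Ensembl gene and gene lengths were deposited, per the file headers. For each group the authors deposited mean FPKM, and for each list the fold ratio between group means. FPKM recomputed from the counts matched 25080 of 25080 deposited values within a relative tolerance of 0.001.

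Members and gene lists were chosen with earlier results of these data known. The rule for named members took the 2 with the smallest p of each role, the largest and smallest differences among members with at least 5 CPM, the most abundant proteases and inhibitors, and a fixed set; adamts12, adamts15, adamts18, adamtsl5, pcsk1, pcsk2, prss23, tmprss4, serpinb1 and the members with too few counts were named outside this rule, after their values were seen. Genes of the wider proteolysis list were named after their values were seen.

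In R 4.3.3, edgeR 4.0.16 was run on all 9 libraries (filterByExpr, TMM, estimateDisp, robust glmQLFit, glmQLFTest, group means only). TMM factors were 0.672 to 0.690 at stage 60 and 1.18 to 1.25 at stage 63. The SE is the log2 difference divided by the square root of the F statistic and is approximate. Alternatives were other scalings, no filter, DESeq2 1.42.0, limma-voom (limma 3.58.1), the 6 libraries of the contrast, a replicate block, a stricter threshold and leaving out each library. Families could not be extended beyond the authors' names, because the reference table pairs none of these gene identifiers. Replicate pairs were compared by chi-square tests, and every pair exceeded sampling noise. Whether close relatives such as serpinb4 and serpinb11 shared reads in counting is not known, so their split is uncertain.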

Additional observations from a re-analysis of the deposited data

How the results depend on the processing

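No called difference of a named member reversed in any alternative. Of the members outside the notochord list, 7 were higher in whole tail; this became 3 at an adjusted p under 0.01, and 4 to 10 when each library was left out in turn. The count lower, 5, became 8 with library size alone, 8 with the replicate block, and 5 to 9 with libraries left out. With the replicate block, 8 members were higher. Same-numbered libraries of the stage 63 groups had correlated deviations for replicates 1 and 3 (0.32 and 0.37) and not for replicate 2 (-0.06); no pair with stage 60 exceeded 0.1. This was so in 2 of the 3 same-numbered pairs of the stage 63 groups, so a pairing between these groups cannot be settled. The main fit did not take the numbers to pair the libraries, and the replicate block did. The block added htra1 to the higher and adamts1, adamts4 and tfpi2 to the lower calls. Of the wider proteolysis list, 6 in place of 3 were higher with the block. Over all genes, 1570 higher and 2043 lower became 789 and 1281 at an adjusted p under 0.01, and 991 were higher without whole stage 63 replicate 2. The count of members higher at stage 63 was 50 to 54, against 51. The ratio of proteases to inhibitors moved to 0.412 and 0.920 (whole stage 60 and stage 63) by family name, and to 0.786, 1.32 and 1.37 without tfpi2 and spint2. With libraries left out its group means were 0.362 to 0.380, 0.762 to 0.827 and 0.751 to 0.891. The cause of these shifts was not tested. Counts under 30 over all libraries, as for adamts13, limit what can be said.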

Other observations

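Several members lie close to each other on the scaffolds of the count table; no source used here names its build. serpinb4 and serpinb11 are adjacent, 12404 bases apart, and differed in whole tail between stages by 0.38 and 2.04 on the log2 scale. tmprss4 and tmprss13, with 1 gene between them, differed by 2.17 and 3.16 between stages. Between whole and notochord-removed tail they differed by -0.09 and -0.50, and tmprss13 alone passed the edgeR test. adamts1 and adamts5, also with 1 gene between them, differed by 1.63 and 2.93 between stages. The difference between neighbours was not tested.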
